A study of Mus musculus with 249 samples.

Results

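The libraries described here came from a test of the reagent volumes used in whole genome amplification for genome architecture mapping (GAM). They were chosen by their library names and by the protocol in their titles, and make up 31 of the 249 libraries of the series. Of these, 10 were made with protocol A, 11 with protocol B and 10 with protocol C. All came from 46C cells, a line of mouse ES cells from strain 129/Ola that carries a Sox1-GFP reporter allele, grown with LIF and moved to serum-free medium before harvest. By the titles, 4 profiles went into each tube. They were picked by laser microdissection, without a stain, from cryosections of 220 nm. A profile is a slice of a cell, and since some slices miss the nucleus, the study gives a lower average number of nuclear profiles per library. The 3 groups share genotype, culture, section thickness, the 4 profiles per tube given in the titles and the storage of frozen caps, and by the labels differ in the amplification mixes. The labels do not say which profiles came from the same section or cell preparation, and p-values measure the spread between tubes.

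GAM infers which parts of the genome lie close together in the nucleus from how often they are found in the same thin slice. A slice cuts through a chromosome as a loop or a stretch of chromatin, so DNA that is truly present tends to occur as runs of neighbouring windows, and co-segregation falls with genomic distance. The DNA in a slice is a few copies at most, and it must be fragmented, given common ends by a library enzyme and amplified by PCR before sequencing. A locus that fails in any of these steps is read as absent, which leaves gaps within runs, while stray reads leave isolated positive windows.

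In protocol A, 4.32 µl of library preparation mix and 1.4 µl of undiluted library enzyme were added to 14.5 µl of lysis mix. In protocol B, 4.95 µl of mix and 4.5 µl of enzyme diluted 3 times were added, and in protocol C 5.35 µl of each, with the enzyme again diluted 3 times. The amplification mix was 87.84 µl in protocol A, 85 µl in protocol B and 108.9 µl in protocol C. Computed from these volumes, the undiluted enzyme came to 1.4 µl, 1.5 µl and 1.78 µl, and the final reaction to 108 µl, 109 µl and 134 µl. The undiluted enzyme made up 6.92% of the preparation reaction in protocol A, 6.26% in protocol B and 7.08% in protocol C. The polymerase made up 6.66%, 6.88% and 6.64% of the final volume. The 3 recipes thus had similar proportions, and protocol C had the largest total volume. All were run for 25 PCR cycles.

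The measurements are calls of 1 (positive) or 0 for each of 68162 windows of 40 kb. The table keeps no read counts, and the depth of each library was not used here. The letter and number that end each library name, as in F37A1, were read here as the row and column of a plate. By this reading the 3 arms filled separate columns, and arm and plate column cannot be told apart. Later comparisons by plate column, plate row or adjacent well rest on this reading. A few libraries stood apart. Protocol A replicate 5 and protocol B replicates 2 and 4 had the fewest positive windows, with 3.40%, 5.58% and 4.19% of windows positive. Protocol B replicate 8 had the most, 32.04%. Protocol C replicate 2 had 54.7% of its positive windows next to another positive window, against 75.3% in the next lowest library of its arm. No 2 of the 31 libraries had identical calls.

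Some sequence was found in nearly every tube, whatever the protocol. The window chr2:98480001-98520000 was positive in all 31 libraries and in all 249 of the series. It holds the starts of the predicted genes Gm10800 and Gm10801. The mitochondrial genome, present in many copies per cell outside the nucleus, was also positive in all 31. A window near the start of chromosome 9, chr9:3000001-3040000, with the starts of predicted genes such as Gm10722, was positive in 30 of 31 libraries and was missing only in protocol B replicate 4. The windows of chromosomes 2 and 9 are each shown by a stretch of 234 bases, because all 3 recipes recovered them in nearly every tube. The stretches were read from the plus strand of the NCBIM37 (mm9) genome, as the part of each window that best matches the sequence 234 bases further on, the distance at which the window of chromosome 9 matched itself best. Capitals mark AAATGAGAA or its reverse complement TTCTCATTT, the most frequent run of 9 letters in the window of chromosome 9.
chr2:98506706-98506939: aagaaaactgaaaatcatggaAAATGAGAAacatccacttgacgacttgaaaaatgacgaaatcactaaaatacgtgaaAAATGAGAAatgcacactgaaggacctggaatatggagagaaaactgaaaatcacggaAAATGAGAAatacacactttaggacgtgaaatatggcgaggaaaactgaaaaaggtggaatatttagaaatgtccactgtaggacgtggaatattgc
chr9:3027538-3027771: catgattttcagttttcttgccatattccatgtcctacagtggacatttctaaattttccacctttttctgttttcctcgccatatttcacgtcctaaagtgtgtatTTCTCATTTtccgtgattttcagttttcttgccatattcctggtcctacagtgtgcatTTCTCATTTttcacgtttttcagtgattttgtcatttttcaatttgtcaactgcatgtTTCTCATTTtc

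Both stretches hold 3 copies of this motif, on opposite strands. Over the whole window of chromosome 9, 69.4% of bases matched the base 234 positions further on, and the motif occurred 469 times. In the window of chromosome 2, 28.03% of bases matched at this distance and the motif occurred 18 times, while the stretch shown matched at 96.6%. The motif was found in 0.767% of the 59621 stretches of 234 bases at the centres of full autosomal windows, and 1 window held 50 or more copies. A tandem repeat with this period is the mouse major satellite of pericentromeric chromatin.

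Coverage, the percent of windows positive, overlapped widely between the arms. In protocol A the lowest library had 3.40%, the median was 14.8% and the highest had 30.0% (mean 15.0% ± 7.27, SD, n = 10). In protocol B the values were 4.19%, 17.2% and 32.04% (mean 16.5% ± 7.80, n = 11). In protocol C they were 6.30%, 16.0% and 28.2% (mean 17.4% ± 6.10, n = 10). None of the 3 differences exceeded the spread between libraries, with permutation p-values adjusted by the Benjamini-Hochberg method (adjusted p) from 0.837 to 0.874. The difference B minus A was 8.11 percentage points in odd plate columns and -7.22 in even ones (adjusted p = 0.227 and 0.474, exact permutation tests; p = 0.0498 and 0.190 before adjustment), and C minus B was -3.70 and 6.12 (adjusted p = 0.545 and 0.474).

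Continuity within runs differed more in size. The dropout rate is the percent of windows called negative among those with positive windows on both sides. It ranged in protocol A from 24.3% to 51.8% with a median of 35.03%. In protocol B it ranged from 20.9% to 69.7% with a median of 27.4%. There 4 libraries were above 45%, and 7 of 11 were below the mean of protocol A. In protocol C the rate ranged from 20.4% to 42.2% with a median of 22.8%, and 9 of 10 libraries were below that mean. The means were 37.2% ± 9.84, 37.2% ± 16.0 and 25.99% ± 7.36 (SD). Protocol C was thus 11.2 percentage points below protocol A (SE 3.89) and 11.2 below protocol B (SE 5.36). The permutation p-values of these differences were 0.0109 and 0.0543 before adjustment and 0.124 and 0.187 after it, so neither passed the threshold of 0.05. Without the 3 libraries under 6% coverage, the differences were -9.55 points from protocol A and -5.97 from protocol B (adjusted p = 0.179 and 0.514, permutation tests). Without protocol C replicate 2, which had the highest dropout of its arm, the difference from protocol A was -13.0 percentage points with an adjusted p of 0.0314 (exact permutation test). This was the lowest adjusted p with 1 library left out. The highest was 0.211, without protocol A replicate 1 (exact permutation test). Compared within plate rows, the difference in dropout was -9.43 points for C minus A and -8.63 for C minus B (adjusted p = 0.192 and 0.519, permutation tests). In the odd plate columns alone the 2 differences were -14.7 and -4.27 points, and in the even columns -6.06 and -19.7, and the difference B minus A was -10.5 in odd and 13.6 in even columns.

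**Figure D1:**
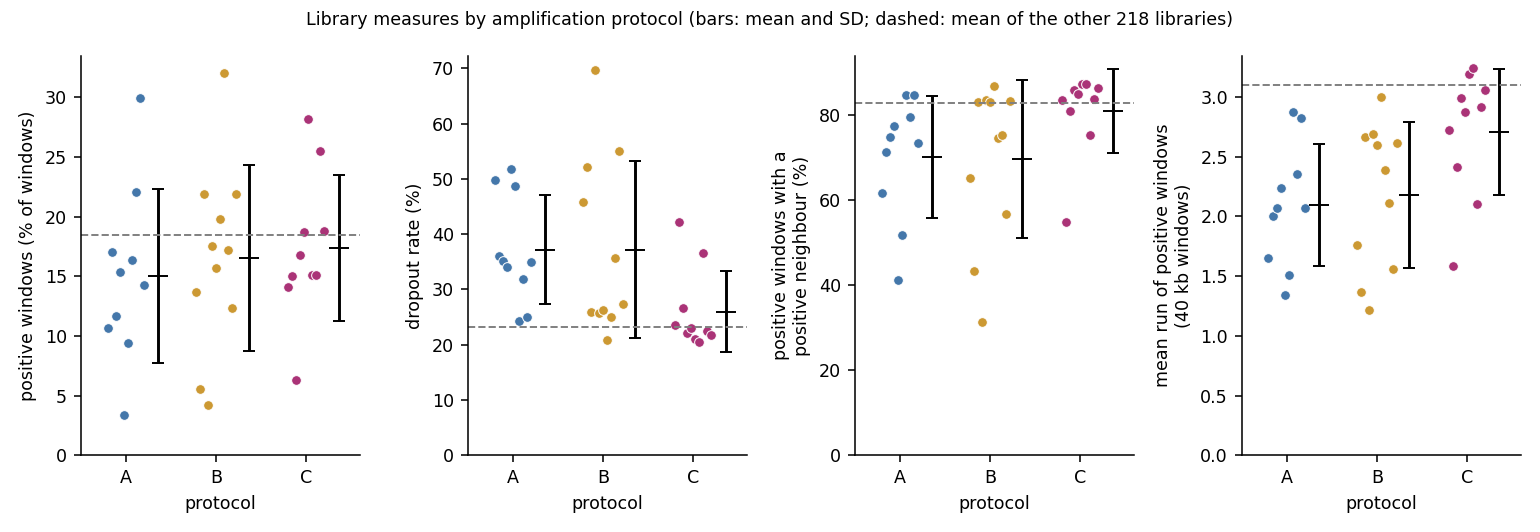
Coverage, dropout rate, share of positive windows with a positive neighbour and mean run length (y axes, units as labelled) of each library by protocol; points are libraries, bars the mean and SD, and dashed lines the mean of the other 218 libraries of the series. Protocol C libraries lie mostly below 30% dropout, with 2 of 10 above it, and the median of protocol B, 27.4%, is also below 30%. Coverage overlaps between the arms.

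The share of positive windows with a positive neighbour was 70.0% ± 14.3 in protocol A, 69.6% ± 18.5 in protocol B and 80.9% ± 9.87 in protocol C. In the same order, the lowest libraries had 41.2%, 31.3% and 54.7%, the medians were 74.0%, 75.3% and 84.3%, and the highest had 84.7%, 86.7% and 87.3%. The highest libraries of the 3 arms were close to each other, and the lowest lay further apart. The share expected from coverage alone, with positive windows placed at random, was 27.3%, 29.8% and 31.4%. Above this expectation, the difference C minus A was 6.89 points in place of 11.0, and C minus B 9.78 in place of 11.4 (adjusted p = 0.374 and 0.209, permutation tests). Without the 3 libraries under 6% coverage, the difference C minus B in the neighbour share itself was 4.20 points (adjusted p = 0.651). The difference C minus A was 17.5 points in odd plate columns and 2.16 in even ones, and C minus B 5.14 and 19.3. The isolated rate, the percent of windows positive among those with negative windows on both sides, was 5.01% ± 1.76, 5.66% ± 3.40 and 4.33% ± 2.26. Its highest value, 15.2%, was in protocol B replicate 8, the library with the highest coverage. No contrast of these measures passed the adjusted threshold (adjusted p from 0.187 to 0.992). Without protocol C replicate 2, the neighbour share of protocol C was 13.9 points above that of protocol A (adjusted p = 0.0334, exact permutation test). Without protocol A replicate 5 it was 7.76 points above, with the highest adjusted p of the left-out comparisons, 0.326 (exact permutation test).

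The mean run of adjacent positive windows was 2.09 ± 0.509 windows in protocol A, 2.18 ± 0.610 in protocol B and 2.71 ± 0.527 in protocol C. The lowest, median and highest libraries were at 1.35, 2.07 and 2.87 windows in protocol A. The same values were 1.22, 2.39 and 3.00 in protocol B and 1.59, 2.90 and 3.24 in protocol C. The difference of 0.617 windows between protocols C and A (SE 0.232) had a permutation p of 0.0184 and an adjusted p of 0.129. The difference of 0.530 between protocols C and B (SE 0.248) had an adjusted p of 0.187. Without protocol C replicate 2, these became 0.742 (adjusted p = 0.0314, exact permutation test) and 0.655 (adjusted p = 0.0508). The highest adjusted p with 1 library left out was 0.214 for C minus A (without protocol C replicate 10, exact permutation test). For C minus B it was 0.300 (without protocol B replicate 4, permutation test). Without the 3 libraries under 6% coverage, the difference C minus B was 0.334 windows (adjusted p = 0.514). The difference C minus A was 0.799 windows in odd plate columns and 0.372 in even ones, and C minus B was 0.330 and 0.781. Dropout, neighbour share, run length and linkage at short distance are computed from the same calls and are not independent results.

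The share of positive windows in runs of each length was described without a test. Single windows held 30.0% ± 14.3 of all positive windows in protocol A, 30.4% ± 18.5 in protocol B and 19.1% ± 9.87 in protocol C. Runs of 10 to 24 windows, which are 400 kb or longer, held 7.37% ± 5.96, 9.28% ± 7.20 and 15.6% ± 6.98. Runs of 3 to 4 windows held similar shares, at 22.8%, 21.1% and 21.5%. The longest single run of protocol A was 54 windows on chromosome 2 in replicate 9 (chr2:5960001-8120000, 2.16 Mb), which covers 7 protein-coding genes. That of protocol B was 65 windows on chromosome 2 in replicate 8 (chr2:16400001-19000000, 13 protein-coding genes). That of protocol C was 86 windows in replicate 9 (chr8:67320001-70760000, 3.44 Mb, 18 protein-coding genes). These libraries had coverages of 29.96%, 32.04% and 25.5%, among the highest of their arms.

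**Figure D2:**
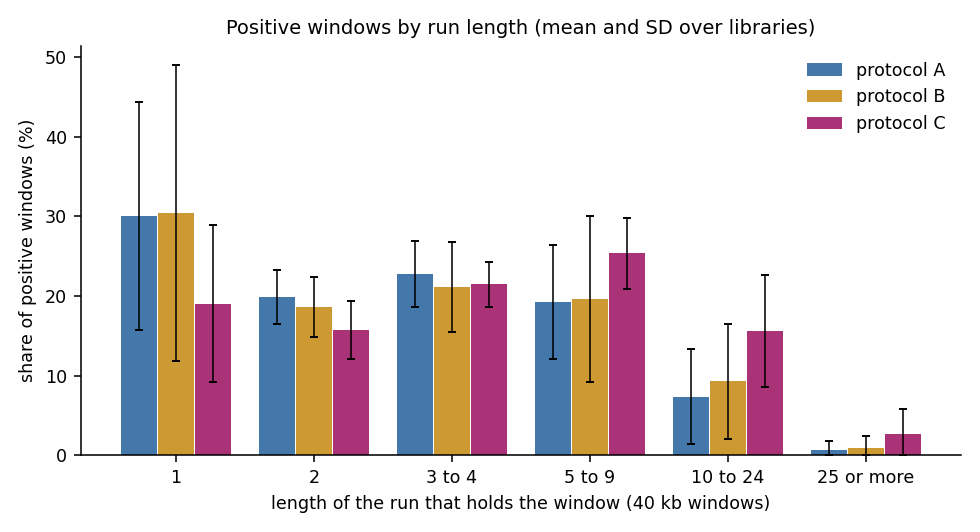
Share of positive windows (y axis, percent) by the length of the run that holds them (x axis, in windows of 40 kb); bars are the means of protocols A, B and C and lines the SD over libraries, drawn no lower than 0. Single windows make up 19.1% in protocol C against 30.0% and 30.4% in protocols A and B.

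Linkage was measured in each library as the correlation between the calls of autosomal windows a fixed distance apart. At 40 kb it was 0.408 ± 0.108 in protocol A, 0.404 ± 0.147 in protocol B and 0.529 ± 0.113 in protocol C. At 1 Mb it was 0.182 ± 0.0703, 0.160 ± 0.0625 and 0.240 ± 0.0645, and at 20 Mb 0.0692 ± 0.0380, 0.0396 ± 0.0291 and 0.0804 ± 0.0369. The means were lower at each longer distance in each arm, and protocol C had the highest mean at all 5 distances (40 kb, 200 kb, 1 Mb, 4 Mb and 20 Mb). At 1 Mb the lowest, median and highest libraries were at 0.0545, 0.183 and 0.320 in protocol A. They were at 0.0418, 0.175 and 0.255 in protocol B, and at 0.0893, 0.259 and 0.302 in protocol C, so the ranges overlapped.

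None of the 15 linkage contrasts passed the adjusted threshold, although 7 had an unadjusted p under 0.05. Between protocols C and B the difference was 0.125 at 40 kb, 0.0794 at 1 Mb and 0.0408 at 20 Mb, with 9 of 10 protocol C libraries above the mean of protocol B. The adjusted p was 0.0958 at 40 kb and 0.0705 at each of the other 4 distances. Between protocols C and A the difference was 0.121 at 40 kb (adjusted p = 0.0770), 0.0581 at 1 Mb (0.119) and 0.0111 at 20 Mb (0.594). The long-range differences were smaller once calls were centred on the mean of each chromosome in each library, which removes how much of a chromosome the tube held. Centred, C minus B was 0.115 at 40 kb, 0.0598 at 1 Mb, 0.0163 at 4 Mb (in place of 0.0411) and 0.0117 at 20 Mb (adjusted p = 0.178), and B minus A at 20 Mb was -0.00427 in place of -0.0296. Without the 3 libraries under 6% coverage, C minus B was 0.0765 at 40 kb (adjusted p = 0.258). Without the 6 libraries whose titles have a hyphen, it was 0.0246 at 4 Mb and 0.0261 at 20 Mb (adjusted p = 0.298 and 0.265, exact permutation tests). The calls also turn on single libraries. Without protocol C replicate 2, exact permutation tests gave an adjusted p of 0.0138 at 40 kb and 0.00655 at 1 Mb for the contrast with protocol B. For the contrast with protocol A they gave 0.00655 and 0.0210. Leaving out protocol A replicate 7 or protocol B replicate 5, the most linked library of each arm at 20 Mb, also brought contrasts under the threshold. Without the former, the C minus A difference was 0.140 at 40 kb and 0.0734 at 1 Mb (adjusted p = 0.0403 for both, exact permutation tests). Without the latter, the C minus B difference was 0.0889 at 1 Mb and 0.0468 at 20 Mb (adjusted p = 0.0386 for both, permutation tests), and the B minus A difference at 20 Mb was -0.0357 (adjusted p = 0.0408). The libraries named here are those whose omission brought contrasts under the threshold. Other omissions raised the adjusted p of C minus A at 1 Mb up to 0.206 (without protocol A replicate 5, exact permutation test). For C minus B at 1 Mb the highest was 0.116 (without protocol C replicate 4, exact permutation test). For protocol B minus protocol A the difference at 40 kb, with all libraries, was -0.00401 (adjusted p = 0.944).

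**Figure D3:**
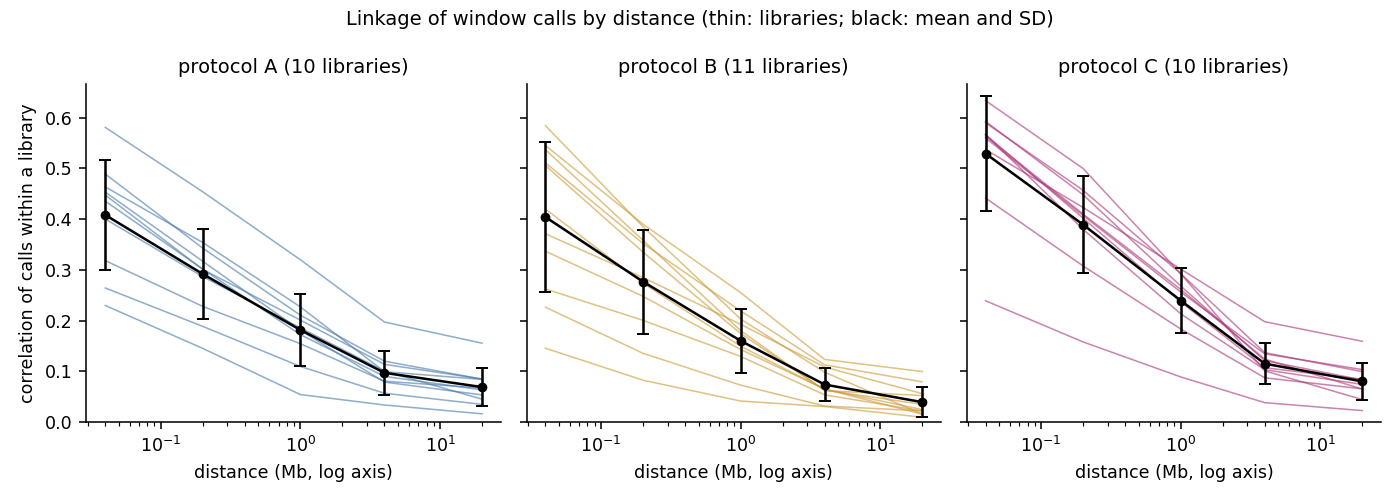
Correlation between calls of autosomal windows of a library (y axis) against the distance between the windows (x axis, Mb, log axis); thin lines are libraries and black points the mean and SD of each protocol. The mean at 40 kb is 0.408, 0.404 and 0.529 in protocols A, B and C, and 1 library of protocol C, replicate 2, lies well below the others.

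The usual GAM statistic is the normalized linkage D′, which scales the co-segregation of 2 windows over libraries by its largest possible value. It was averaged over pairs of autosomal windows that were both positive in at least 3 libraries of the arm, with an SE from leaving out each library in turn (jackknife). At 40 kb the mean was 0.668 ± 0.0344 in protocol A (6210 pairs), 0.654 ± 0.0359 in protocol B (10545 pairs) and 0.740 ± 0.0405 in protocol C (10236 pairs). At 1 Mb it was 0.385 ± 0.0448, 0.310 ± 0.0494 and 0.404 ± 0.0462. At 20 Mb it was 0.186 ± 0.0768, 0.0931 ± 0.0659 and 0.162 ± 0.0611. With windows in at least 4 libraries, the means at 1 Mb were 0.395, 0.316 and 0.387, so that A and C changed order. At 20 Mb the mean of protocol A was 0.114 without replicate 9 and that of protocol B 0.0307 without replicate 8. Differences in D′ were not tested, and protocol B has 1 library more than the others.

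Against the other 218 libraries of the series, which come from 10 other experiments, protocols A and B had more dropout and a lower neighbour share, while the contrasts of protocol C did not pass the test. The mean dropout rate of those libraries was 23.3% ± 11.2. That of protocol A was 13.9 percentage points higher, with all 10 libraries above that mean (adjusted p = 0.00404, permutation test). That of protocol B was 13.97 points higher, with 10 of 11 libraries above it (adjusted p = 0.00404). Protocol C was 2.73 points higher (adjusted p = 0.5996). Their neighbour share was 82.8% ± 10.6, and the differences of protocols A and B were -12.8 and -13.2 points (adjusted p = 0.00468 and 0.00404). That of protocol C was -1.84 points (adjusted p = 0.652). Without the 3 libraries of the arms under 6% coverage, protocol A kept a dropout 12.3 points higher (adjusted p = 0.0371) and protocol B one 8.71 points higher (adjusted p = 0.0669). In neighbour share the differences were then -9.60 and -6.04 points (adjusted p = 0.0669 and 0.172). This filter was applied to the arms only, and the other 218 libraries kept coverages down to 3.56%. The other experiments varied other steps of the method, and which of these differences bears on the contrast cannot be told apart. The permutation test regroups single libraries, so its p-values do not measure the spread between experiments. The large-kit arm of the kit test, at 41.6% ± 14.6 dropout (n = 11), and the 25-cycle arm of the PCR test, at 14.3% ± 2.89 (n = 3), show the range among them.

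Dropout and coverage come from the same calls, and with positive windows placed at random the dropout rate would be the complement of coverage, so a negative relation is built in. It is given as a description, and its p-values, which test against no relation, are not given. Across the 31 libraries Pearson r was -0.686 and Spearman rho -0.685. Within protocols A, B and C r was -0.809, -0.820 and -0.347, and rho -0.806, -0.845 and -0.661. Leaving out the 2 libraries whose coverage lay farthest from the median gave an r of -0.719 over all arms, and -0.700, -0.828 and -0.372 within the arms. Protocol C replicate 3 had 6.30% coverage with 26.7% dropout, whereas protocol B replicate 2, at 5.58% coverage, had 52.1%.

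Positive windows were slightly richer in G and C than the autosomal windows found anywhere in the series. The GC shift, in percentage points of GC content, was 0.480 ± 0.529 in protocol A, 0.541 ± 0.433 in protocol B and 0.411 ± 0.430 in protocol C. It was above 0 in 10 of 10, 11 of 11 and 9 of 10 libraries, and no contrast between arms passed (adjusted p from 0.837 to 0.874). In the 10% of windows with the least GC, which average 36.2%, the arms detected 14.2%, 15.7% and 16.9% of windows. In the 10% with the most, which average 49.9%, they detected 18.6%, 21.5% and 20.9%. The ratio of these rates ranged over libraries from 0.922 to 4.71 in protocol A, with a median of 1.38. The medians of protocols B and C were 1.35 and 1.17, and their highest libraries were at 2.97 and 2.44.

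The GC shift was largest where coverage was lowest (r = -0.708, adjusted p = 8e-05, rho = -0.613, adjusted p = 0.00132, permutation tests adjusted over 8 tests, which include the 4 of dropout, with an unadjusted p of 1e-05 for r, the smallest that 100000 resamples can give). Protocol A replicate 5 had a shift of 1.85 points, protocol B replicates 2 and 4 had 1.34 and 1.29, and protocol C replicate 3 had 1.11. Within arms r was -0.665, -0.845 and -0.620 (adjusted p = 0.0678, 0.00136 and 0.0678). With the 2 libraries of most distant coverage left out, it was -0.720 over all arms. Within protocols A and C it was then -0.148 and -0.239, so within those arms the relation rested on these libraries. Windows in runs carried more of the shift than isolated ones in 9 of 10, 11 of 11 and 8 of 10 libraries.

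**Figure D4:**
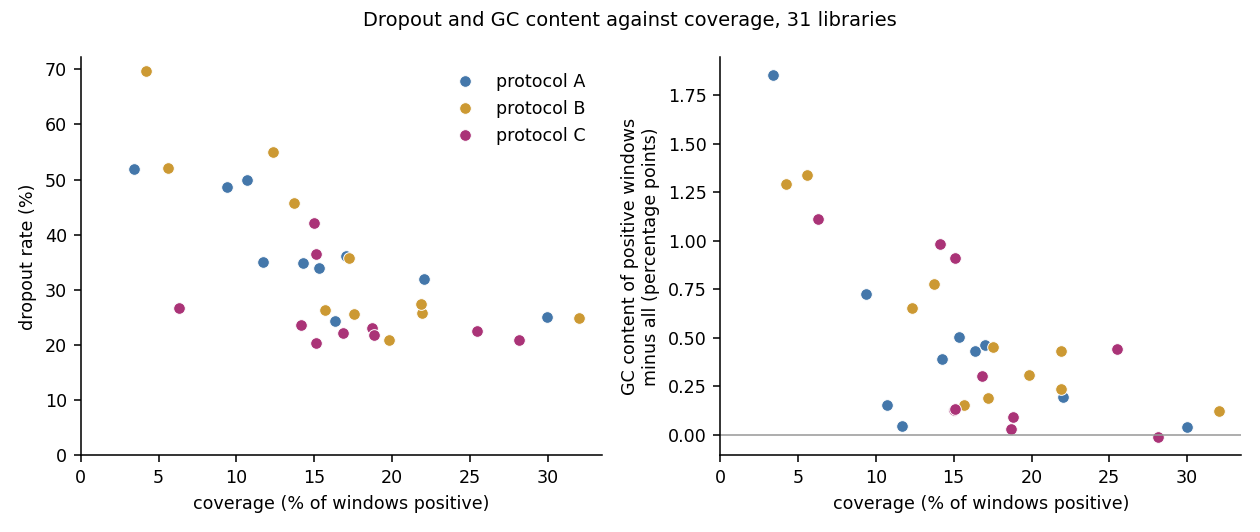
Dropout rate (left, percent) and GC shift (right, percentage points) against coverage (x axis, percent of windows positive) in the 31 libraries, coloured by protocol. Both are higher at low coverage, except that 1 protocol C library at 6.30% coverage has a dropout of 26.7%.

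By chromosome, libraries of the same arm differed widely. The spread over the 19 autosomes, the SD of their percent of positive windows divided by the mean, was 59.2% ± 14.7 in protocol A, 44.5% ± 9.34 in protocol B and 54.8% ± 14.9 in protocol C. All 11 protocol B libraries were below the mean of protocol A, a difference of -14.7 percentage points (SE 5.43) with a permutation p of 0.0118 and an adjusted p of 0.124. In odd plate columns it was -21.3 points (p = 0.0173, adjusted p = 0.227, exact permutation test). In even columns it was -5.39 (p = 0.444, adjusted p = 0.622, exact permutation test). Without protocol A replicate 9 it was -17.4 points (adjusted p = 0.0493, exact permutation test). The highest adjusted p with 1 library left out was 0.211 (without protocol A replicate 1, exact permutation test). Single chromosomes ranged from nearly absent to mostly present. In protocol C replicate 9, 75.2% of the windows of chromosome 8 were positive, and in protocol A replicate 7 54.8% of chromosome 4 were positive with 0.0967% of chromosome 9.

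Of 60 tests of a chromosome's percent minus that of the other autosomes, 0 passed the permutation test after adjustment and 2 had an unadjusted p under 0.05. Chromosome 8 was positive in 10.3% of windows in protocol A and 23.1% in protocol C, a relative difference of 10.9 points (p = 0.0409, adjusted p = 0.809, permutation test). Without protocol C replicate 9, chromosome 8 was at 17.3% in protocol C and the relative difference was 5.76 points (p = 0.0816, adjusted p = 0.854, exact permutation test). Chromosome 2 was positive in 19.6% in protocol B and 11.998% in protocol C, a relative difference of -9.17 points (p = 0.0167, adjusted p = 0.809). Chromosome 12, at 20.7%, 16.7% and 15.0% in protocols A, B and C, had the largest relative difference between A and B (-5.98 points, adjusted p = 0.809).

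Chromosome X, of which the line carries a single copy, was positive in 6.83% ± 6.74, 7.56% ± 7.99 and 8.03% ± 6.85 of windows, against 16.1%, 17.7% and 18.6% of autosomal windows. It was below the autosomes of the same library in 10 of 10, 10 of 11 and 9 of 10 libraries. The mean ratio was 0.380 ± 0.255 in protocol A, 0.397 ± 0.306 in protocol B and 0.471 ± 0.375 in protocol C. Single tubes ranged from 0.168% in protocol A replicates 3 and 4 to 26.5% in protocol B replicate 11.

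**Figure D5:**
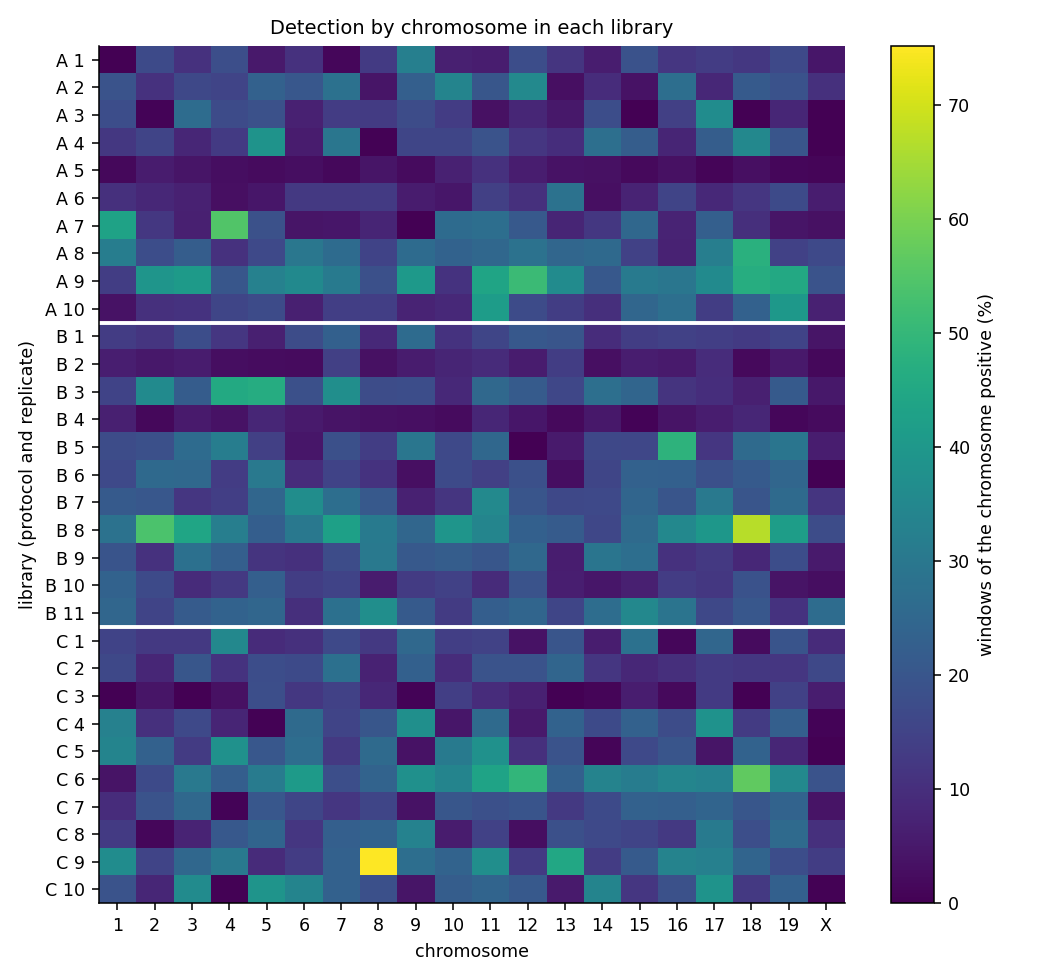
Percent of windows positive (colour) for each chromosome (x axis) in each of the 31 libraries (y axis, protocol and replicate; white lines separate the protocols). Levels vary within each protocol, and the highest tile is chromosome 8 in protocol C replicate 9 at 75.2%.

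Of the 61816 autosomal windows, 95.8% were positive in at least 1 of the 31 libraries and 89.2% in at least 3. The median window was positive in 5. Over any 10 libraries of an arm, 80.6% of autosomal windows were positive at least once in protocol A, 83.2% in protocol B and 84.5% in protocol C. The share positive at least 3 times was 21.9%, 26.4% and 29.3%. With 3 libraries the share found at least once was 40.6%, 43.8% and 45.6%. The order of the arms follows their mean coverage, for which no difference passed the test. Pairs of libraries overlapped little. The phi coefficient between the calls of 2 libraries had a median of 0.00744 within a protocol (145 pairs) and 0.00800 between protocols (320 pairs). In wells next to each other it was 0.00686 (39 pairs), and no pair exceeded 0.0841.

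Single windows were compared with Fisher's exact test. After adjustment, 0 windows differed in any contrast. Between A and B, 708 of 44271 windows tested (1.6%) had an unadjusted p under 0.05, between A and C 322 of 43823 (0.735%), and between B and C 974 of 47316 (2.06%), each below 5%. Leaving out 1 library at a time gave 231 (without protocol B replicate 8) to 815 windows between A and B, 533 to 1007 between A and C, and 327 (without protocol B replicate 3) to 1186 between B and C. Fewer libraries change the p-values that the exact test can take. The percent called after adjustment was 0 in all 3 contrasts. Of the 708 windows, 298 were found more often in protocol B than in protocol A and 410 less often. Of the 974 windows, 688 were found more often in protocol C than in protocol B, and of the 322, 231 were found more often in protocol C than in protocol A.

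The windows with the lowest p are given as values, since none passed. The window chr14:10160001-10200000, which holds no protein-coding gene, was positive in 0 of 10 libraries of protocol A, 8 of 11 of protocol B and 1 of 10 of protocol C (p = 0.00103 for B against A, adjusted p = 1, Fisher's exact test). The window chr11:94000001-94040000, also without a protein-coding gene, was positive in 3, 0 and 7 libraries. The window chr5:108320001-108360000, with the start of Rpl5, a protein of the large ribosomal subunit, and exons of Fam69a, was positive in 0, 2 and 7 libraries. The window chr16:89920001-89960000 in Tiam1, an activator of the GTPase Rac, was positive in 0, 3 and 7.

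The longest stretches of adjacent windows with an unadjusted p under 0.05 in 1 direction were short. The stretch chr2:84400001-84600000 spans 5 windows with the starts of 7 genes. Among them are Ctnnd1, which encodes the cadherin partner p120 catenin, Med19, a subunit of the Mediator complex, and Clp1, an RNA kinase of tRNA and mRNA processing. It was positive in 61.8% of window calls in protocol B, 20% in protocol A and 0% in protocol C. Its last window, with the starts of Clp1 and Ypel4, was positive in 3, 8 and 0 libraries of protocols A, B and C (p = 0.00103 for C against B, adjusted p = 1, Fisher's exact test). Another stretch, chr8:113440001-113600000 with the starts of St3gal2, Ddx19a, Ddx19b and Aars, was positive in 2.5%, 50% and 30%. The stretch chr12:120080001-120200000, with the start of Sp8, a zinc finger transcription factor, and exons of Abcb5, was positive in 40%, 0% and 16.7%. The stretches chr8:64720001-64840000 and chr15:24040001-24160000 hold no protein-coding gene. The former was positive in 0%, 24.2% and 56.7% of calls and the latter in 0%, 18.2% and 53.3%. Adjacent windows of a library lie in the same slice and are not independent.

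Detection of a gene's window says that its DNA was in the tube, not that the gene was expressed. Of 4 lists of genes, 54 starts were placed in windows through the GENCODE vM1 annotation of the same genome. The 20 pluripotency genes were found in a median of 6 of 31 libraries, against 5 for all autosomal windows. Per library, 0% to 35% of them were positive in protocol A (median 15%), 10% to 35% in protocol B (median 25%) and 5% to 55% in protocol C (median 20%). Pou5f1 (Oct4), the central factor of the network, was positive in 1 of 10, 3 of 11 and 2 of 10 libraries, Sox2, its partner, in 0, 4 and 0, and Nanog in 3, 4 and 1. Esrrb, a nuclear receptor that sustains self-renewal, was positive in 0 of 10 libraries of protocol A and 5 of 10 of protocol C (p = 0.0325, adjusted p = 1, Fisher's exact test). It was the single window of the 16 tested between A and C with an unadjusted p under 0.05, against 0.735% of all windows tested in that contrast. Between A and B 0 of 14 reached it, against 1.6% of all windows, and between B and C 0 of 18, against 2.06%.

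The 12 housekeeping genes had a median of 5 libraries, from Hprt, on chromosome X, in 1 of 31 to Hsp90ab1, a cytosolic chaperone, in 11. Actb was positive in 2, 3 and 2 libraries and Gapdh in 1, 2 and 1. The 8 genes at the ends of the Hox clusters, which set position along the body axis, had a median of 6.5 libraries. Hoxb13 was positive in 5, 4 and 3 and Hoxd1 in 1, 0 and 1. The 14 long neuronal genes, in which Dmd (dystrophin) is included for its length, had a median of 5, from 1 to 8 libraries, at a mean GC content of their start windows of 39.9% against 47.02% for the pluripotency genes. In protocol A 7.86% ± 9.19 of them were positive per library, in protocol B 18.2% ± 14.1 and in protocol C 20.7% ± 19.2, and 0 of the 7, 7 and 12 windows tested for B minus A, C minus A and C minus B had an unadjusted p under 0.05, against 1.6%, 0.735% and 2.06% of all windows tested. Csmd1, a membrane protein with CUB and sushi domains, was positive in 0, 2 and 4 libraries, and Cntnap2, a neurexin-like adhesion protein, in 1, 1 and 4.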

How the data were processed

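The members, measures, gene lists and tests were chosen with earlier results of these data known. DNA of each tube was amplified with the Sigma WGA4 kit and made into Nextera libraries. The authors aligned reads to mm9 with Bowtie2 (version 2.1 in the submitters' processing notes), removed duplicates and called windows positive with GAMtools where they held the fixed number of 4 reads. The deposited value, in no standard unit, is 1 or 0 per window and library, for libraries that passed the authors' quality control, without read counts, and read totals were not used here. Here, arms were compared by the difference of means with two-sided permutation tests (100000 resamples, or all regroupings where these could be listed and 1 arm had under 10 libraries). P-values were adjusted by the Benjamini-Hochberg method over 21 contrasts of 7 measures, 15 of linkage, 60 of chromosomes and 12 against the rest of the series. Fisher's exact test was run on windows found in 3 or more libraries of the pair. The named windows are, per pair of arms, the 4 with the lowest p and the 2 longest stretches, of which examples are given and 1 stretch is not reported here, those positive in all 31 libraries, and the gene starts of 4 lists. Windows positive in 30 libraries were named after their values were seen. GC content and genes came from NCBIM37 and GENCODE vM1, whose chromosome lengths match the table. A gene name with several models was placed by its longest model, and Tfcp2l1 by an older symbol. The tests were checked on simulated data with no difference or a large one, and with windows drawn independently. That check does not give their error rate or power for these calls, in which adjacent windows are linked. Python 3.11.15, NumPy 2.4.6 and SciPy 1.17.1 were used. Replicate numbers only name libraries.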

Additional observations from a re-analysis of the deposited data

Results flagged for a closer look

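In 24 sets of 10 libraries (12 measures in protocols A and C), 6 values lay farther from the rest of their arm than Dixon's test allows at the 95% level, where chance gives about 1 in 20. Protocol B, with 11 libraries, was not examined in this way. In protocol A, replicate 5 had a GC shift of 1.85 points, against 0.723 in the next library. Replicate 7 of protocol A had the highest linkage at 4 Mb, 0.197, and at 20 Mb, 0.156, against 0.120 and 0.0852 in the next libraries. In protocol C, replicate 2 had the lowest neighbour share, 54.7%, and the lowest linkage at 40 kb, 0.239, against 75.3% and 0.441. Replicate 3 of protocol C had the widest spread over chromosomes, 89.7%, against 60.5%, at the lowest coverage of its arm.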

How the results depend on the processing

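Of 309 values under other settings than leaving out a library, 266 kept their direction and side of the threshold or moved little, 32 changed sign, 8 counts moved and 3 were no longer called; none of the sign changes was in a difference that had passed its test, and the cause was not tested. With medians, the differences were 1.31 (neighbour share B minus A), -7.68 (dropout rate B minus A) and -1.24 (coverage C minus B). Without the 6 libraries whose titles write the protocol with a hyphen, the differences were 1.76 (neighbour share B minus A), -2.62 (dropout rate B minus A), -0.243 (coverage C minus B) and 0.0139 (linkage at 40 kb B minus A). Without the 6 libraries whose titles write the protocol with a hyphen, the numbers of windows with an unadjusted p under 0.05 were 395 (B minus A), 107 (C minus A) and 612 (C minus B). In odd plate columns, the differences were 12.4 (neighbour share B minus A), -10.5 (dropout rate B minus A), -0.187 (GC shift B minus A), -3.70 (coverage C minus B) and 0.0545 (GC shift C minus B). In even plate columns, the differences were -7.22 (coverage B minus A), -1.56 (isolated rate B minus A), -0.410 (mean run length B minus A), -1.10 (coverage C minus A), 1.88 (chromosome spread C minus A), 0.0391 (GC shift C minus A) and 0.571 (isolated rate C minus B). Within plate rows, the differences were 2.62 (neighbour share B minus A), -1.73 (dropout rate B minus A) and -0.0549 (GC shift B minus A). With calls centred on each chromosome, the differences were 0.0102 (linkage at 40 kb B minus A) and 0.00214 (linkage at 200 kb B minus A). With windows found in 5 or more libraries, the numbers of windows with an unadjusted p under 0.05 were 401 (B minus A) and 508 (C minus B). With windows of 200 kb, the numbers of windows with an unadjusted p under 0.05 were 109 (B minus A), 50 (C minus A) and 188 (C minus B). Without the 3 libraries under 6% coverage, an alternative chosen after seeing the data, the differences were 3.56 (neighbour share B minus A), -3.58 (dropout rate B minus A), 0.0838 (GC shift C minus A), -1.76 (coverage C minus B), 0.0419 (GC shift C minus B), 0.0246 (linkage at 40 kb B minus A), 0.00619 (linkage at 200 kb B minus A), -9.60 (neighbour share protocol A against the rest), 0.643 (coverage protocol B against the rest), -6.04 (neighbour share protocol B against the rest) and 8.71 (dropout rate protocol B against the rest). In the values against the rest, the filter was applied to the arms and not to the rest of the series. With each library left out in turn, the ranges of the differences were -0.0329 to 3.18 (coverage B minus A), -3.61 to 3.41 (neighbour share B minus A), -0.297 to 0.983 (isolated rate B minus A), -3.19 to 1.69 (dropout rate B minus A), -17.4 to -11.8 (chromosome spread B minus A), -0.0183 to 0.214 (GC shift B minus A), 7.76 to 13.9 (neighbour share C minus A), -13.0 to -9.55 (dropout rate C minus A), 0.533 to 0.742 (mean run length C minus A), -0.146 to 0.0838 (GC shift C minus A), -0.408 to 2.38 (coverage C minus B), -0.0238 to 0.0218 (linkage at 40 kb B minus A), -0.0311 to 0.00462 (linkage at 200 kb B minus A), -0.0357 to -0.0200 (linkage at 20 Mb B minus A), 0.101 to 0.153 (linkage at 40 kb C minus A), 0.0812 to 0.123 (linkage at 200 kb C minus A), 0.0439 to 0.0748 (linkage at 1 Mb C minus A), 0.0991 to 0.157 (linkage at 40 kb C minus B), 0.0928 to 0.138 (linkage at 200 kb C minus B), 0.0675 to 0.0961 (linkage at 1 Mb C minus B), 0.0319 to 0.0496 (linkage at 4 Mb C minus B), 0.0320 to 0.0472 (linkage at 20 Mb C minus B), -2.32 to 0.110 (coverage protocol C against the rest), -2.55 to 1.07 (neighbour share protocol C against the rest) and -0.0667 to 0.792 (isolated rate protocol C against the rest). For windows with an unadjusted p under 0.05 they were 231 to 815 (B minus A), 533 to 1007 (C minus A) and 327 to 1186 (C minus B). Of the 20 calls gained in this way, those at 200 kb and 4 Mb and that of C minus B at 20 Mb without protocol C replicate 2 are not described beside the results, and had adjusted p-values from 0.00655 to 0.0408. Among differences that were not called, C minus A ranged from 1.054 to 4.01 in coverage, from -8.25 to -1.45 in chromosome spread and from 0.00237 to 0.0208 in linkage at 20 Mb, which was 0.000141 without the hyphenated titles. There C minus B was 0.0246 at 4 Mb and 0.0261 at 20 Mb. No paired analysis was possible because replicate numbers only name libraries. The comparisons within plate rows block by the row of the well, not by replicate. The depth of the libraries was not used here, and p-values rest on 10 or 11 libraries an arm.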
